A study of Mus musculus with 8 samples.

Results

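The genes described here encode the lysosome's proton pump, its digestive enzymes and the proteins of its membrane. They are 42 of the 17999 genes tested, taken from a list of symbols and each read by its brightest non-control probe. Of the 42, 15 encode subunits or accessory proteins of the vacuolar ATPase (V-ATPase, symbols beginning with Atp6), and 27 encode hydrolases, other soluble lysosomal proteins and membrane proteins. All 42 passed the filter on dim probes, and each was well above background in both channels of all 8 arrays.

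The RNA was the cytoplasmic RNA of mouse bone marrow macrophages, read on 8 Agilent arrays of 2 colours. Every array paired day 3 of differentiation under CSF-1, the growth factor of macrophages, with day 0 of the same genotype and experiment. The control genotype was ERT2 Cre, and the flox genotype ERT2 Cre Thoc5 (flox/flox). Both carried the Cre recombinase that tamoxifen activates, on the background C57BL/6 x B6:129 Ola, so they differed in the Thoc5 alleles. Day 3 cells of either genotype were untreated or had received tamoxifen (treated), which gives 4 groups of 2 arrays, 1 from each of 2 biological experiments with opposite dyes. Day 0 cells had no tamoxifen, and in each experiment both arrays of a genotype carried the same day 0 RNA. Whether the experiments used different animals is not stated. The fit takes out the shift that all groups of an experiment share, so p-values measure the spread between experiments that remains. What drives the Cre, the age of the mice and the time and dose of tamoxifen are not given in the sources used here.

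The V-ATPase spends ATP to pump protons into lysosomes. Its peripheral V1 sector burns the ATP and turns a rotor, and its membrane V0 sector carries the protons. Hydrolases that reach the lysosome need the acid this pump makes, and macrophages, which digest what they engulf, are rich in all of these proteins. Many lysosomal genes share an E-box in their promoters that is bound by TFEB and its relatives, factors that raise their transcription when lysosomes are under load. Thoc5 is a subunit of the THO complex, which helps export mRNA from the nucleus, so RNA measured in the cytoplasm reads both making and export.

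Values are log2 ratios of day 3 over day 0, experiment 1 before experiment 2. Thoc5 served as the check of the labels, with log2 ratios of -0.40 and -0.28 in untreated control cells, -0.21 and -0.15 in treated control cells, -0.74 and -0.77 in untreated flox cells and -3.04 and -3.02 in treated flox cells. It was by far lowest on both arrays of treated flox cells, where limma gave a tamoxifen effect of -2.27 ± 0.10 (SE; adjusted p = 0.000709). Whether this probe lies in the part that the Cre removes is not stated in the labels. The arrays had 52.0% to 58.6% of spots above background and 0 saturated spots. Replicate arrays of a group correlated at 0.78 to 0.93 over the genes. All 10 macrophage markers were above background at day 3 in all 4 groups, with summed log2 levels of 20.2 to 20.3. At day 0 all 10 were above background too, with summed levels of 19.6 to 20.1.

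Tamoxifen in flox cells raised 15 of the 42 lysosomal genes and lowered 0 (limma, Benjamini-Hochberg adjusted p under 0.05 over all genes). Among all genes, 4.87% were called higher and 4.16% lower. The called genes were 5 of the 15 for the V-ATPase and 10 of the 27 others. Naglu, Cd63, Cd68 and Atp6v1a changed most, at 2.18-fold, 2.07-fold, 1.99-fold and 1.96-fold higher with tamoxifen. The median log2 change was 0.30 over the V-ATPase genes and 0.49 over the others, against -0.01 over all genes. In both experiments, 39 of the 42 lay above 0, compared with 36.8% of all genes. At an unadjusted p under 0.05, 27 of the 42 passed, against 4490 of all 17999 genes. Only Ppt1 at -0.03 ± 0.19 and Gm2a at -0.07 ± 0.11 had fitted values below 0. In bulk samples such as these, more cells of a type and more RNA per cell cannot be told apart.

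The calls rested on few arrays. Without 1 of the 4 flox arrays, 1 gene was called: Atp6v1a without untreated experiment 1, Cd63 without treated experiment 2, and Naglu without either other array. Without a treated control array 6 were called, and without an untreated one 16. The fit without a term for the experiment called 3, Cd63, Naglu and Clcn7. Each of the 15 kept its direction in all 19 alternative settings, and the number of settings that called it ran from 8 for Atp6v1d and Lamp1 to 16 for Cd63 and 17 for Naglu.

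Markers of other cells that the marrow culture could hold moved with the same groups. For tamoxifen in flox cells, 4.87% of all genes were called higher and 4.16% lower. Of 5 stromal markers, Dcn was called higher with tamoxifen in flox cells. Their summed log2 level at day 3 was 14.5 to 15.9 there, 14.2 to 14.6 in untreated flox cells and 13.4 to 13.8 in control cells. The median change of the stromal markers was 1.64 in experiment 2 and -0.0017 in experiment 1, where the 42 genes had a median of 0.37 (0.43 in experiment 2). Of 6 osteoclast markers, Ctsk (2.05 ± 0.22), Dcstamp (1.22 ± 0.18) and Mmp9 (0.77 ± 0.17) were called higher. Oscar and Ocstamp were not called, and Calcr, the calcitonin receptor, was not well above background in any group. Acp5, tartrate-resistant acid phosphatase, was listed with the hydrolases rather than here and was called lower, at -1.44 ± 0.13. The summed osteoclast level at day 3 was 14.4 to 14.9 in flox cells with tamoxifen and 12.3 to 13.3 in the other groups. Of the 10 macrophage markers, Mpeg1 (0.96 ± 0.11) rose and Itgam (-0.86 ± 0.15), Fcgr1 (-0.86 ± 0.11) and Aif1 (-1.31 ± 0.15) fell. Among markers of other marrow cells, 1 of 3 measured for B cells, 2 of 5 for megakaryocytes and 1 of 5 for stem and progenitor cells fell, while limma called 0 of 9 for neutrophils and 0 of 2 for erythroid cells (1 and 0 at an unadjusted p under 0.05). At day 0, the neutrophil and precursor markers had summed levels of 19.4 to 19.6 in flox and 18.7 to 19.1 in control cells, and the stromal ones 15.1 to 15.2 and 14.0 to 14.6. The part of these cells in the results was not tested.

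**Figure D1:**
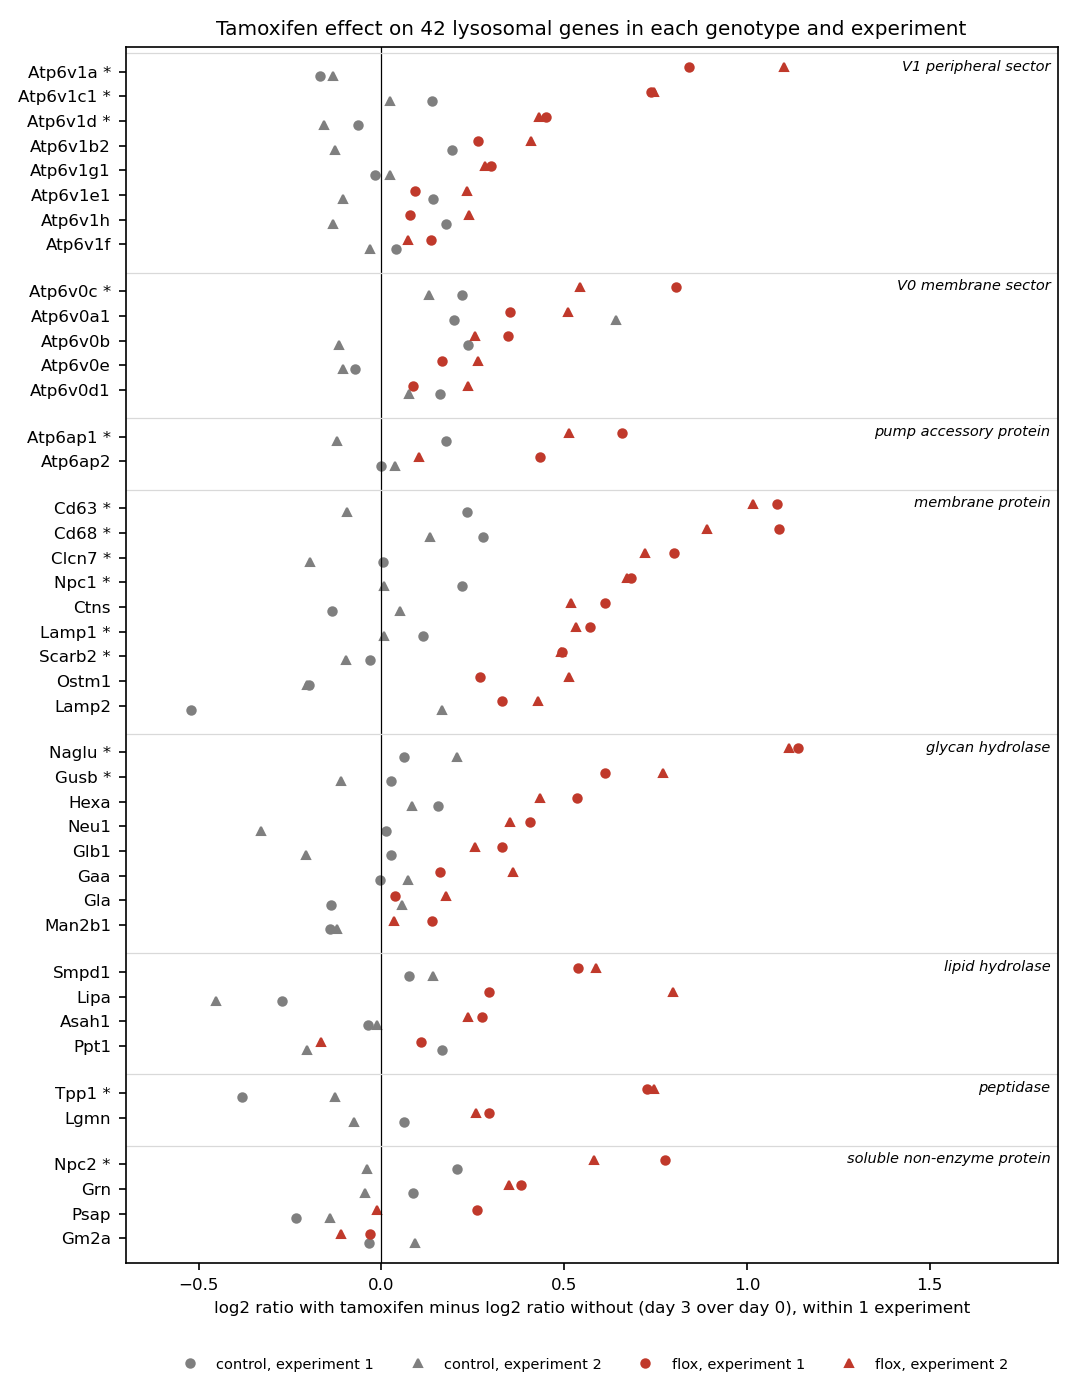
Tamoxifen effect (log2 ratio with tamoxifen minus without, x axis) for each of the 42 genes, ordered by role, in control (grey) and flox (red) cells; circles are experiment 1, triangles experiment 2, and a star marks the 15 genes called in flox cells. The red points lie right of 0 in both experiments for 39 genes, while the grey points lie on both sides of 0.

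Promoter sequences were looked at because so many members moved the same way. RefSeq windows (GRCm38.p6, 250 bases before to 50 after the start) matched 36 of the 42; Asah1, Atp6v1b2, Atp6v1c1, Atp6v1g1, Atp6v1h and Npc1 did not match. The E-box CACGTG, which reads the same on both strands, was present in 11 of the 36 members (30.6%) and in 8.09% of the 27025 genes of the table. That table was not limited to the genes tested here. The median share of G and C bases was 55.8% in the members and 52.75% over the table. A longer form, TCACGTGA, was in 5 members (13.9%) and 1.12% of genes. The 10-base form that adds a G before and a C after it was in 0 members and 0.37% of genes. All 11 had the E-box with the flank of TCACGTG or CACGTGA, a form searched after the others and present in 4.29% of genes. These motifs are nested, so their counts are not separate. By class, 4 of 11 V-ATPase genes and 7 of 25 others held CACGTG. Of the calls for tamoxifen, 4 of the 13 matched genes called in flox cells held it, and 7 of the 23 not called. The stretches below show it in capitals, 5′ to 3′ on the gene's strand, in 4 called genes and then in 2 that were not called, with positions on GRCm38.p6.
Lamp1, chr8:13159076-13159160 (+), with 4 E-boxes: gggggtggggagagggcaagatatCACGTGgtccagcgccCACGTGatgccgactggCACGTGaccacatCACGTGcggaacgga
Naglu, chr11:101069997-101070050 (+): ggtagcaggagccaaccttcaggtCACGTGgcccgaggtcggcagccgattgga
Atp6v1a, chr16:44139361-44139414 (-): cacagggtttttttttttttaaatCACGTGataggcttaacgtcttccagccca
Clcn7, chr17:25133352-25133390 (+): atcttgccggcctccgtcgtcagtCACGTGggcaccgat
Atp6v0b, chr4:117887330-117887389 (-), with 2 E-boxes: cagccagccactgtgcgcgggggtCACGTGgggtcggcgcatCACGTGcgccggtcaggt
Gla, chrX:134601170-134601255 (-), with 2 E-boxes: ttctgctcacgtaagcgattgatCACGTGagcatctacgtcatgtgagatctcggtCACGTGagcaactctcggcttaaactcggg
The E-boxes of Lamp1 begin -61, -45, -28 and -15 bases from the start, and no other matched member had more than 2. Clcn7 has its other E-box after the start, outside the stretch shown. A match describes these letters and says nothing of a factor bound there.

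The V1 sector, which makes up 8 of the 15 pump genes, held 3 of the 5 called ones. Atp6v1a encodes subunit A, which binds and splits ATP, and its probe lies at chr16:44085826-44085885 on mm9. Its log2 ratios were -0.75 and -0.29 in untreated control cells, -0.92 and -0.42 in treated control cells, -0.63 and -0.50 in untreated flox cells and 0.21 and 0.61 in treated flox cells. Both arrays of flox cells with tamoxifen were above 0 and all 6 others below it, so the groups did not overlap. The tamoxifen effect in flox cells was 0.97 ± 0.12 (SE; 95% interval 0.68 to 1.27; limma adjusted p = 0.00881). A second, dimmer probe of the gene gave 0.77 ± 0.20.

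Atp6v1c1 encodes subunit C, which joins V1 to V0 and is released when the pump comes apart (probe at chr15:38621773-38621832). Its log2 ratios were -0.70 and -0.10 in untreated control cells, -0.57 and -0.08 in treated control cells, -0.53 and -0.09 in untreated flox cells and 0.20 and 0.66 in treated flox cells. Both flox arrays with tamoxifen were the highest of their experiment and lay above the other 6, and the effect was 0.74 ± 0.10 (limma adjusted p = 0.0101). Atp6v1d, subunit D of the rotor shaft (probe at chr12:79943993-79944052), had log2 ratios of 0.03 and 0.29 in untreated control cells, -0.04 and 0.13 in treated control cells, 0.05 and 0.14 in untreated flox cells and 0.50 and 0.57 in treated flox cells. Here too the 2 flox arrays with tamoxifen stood above the rest, and the effect of 0.44 ± 0.10 passed narrowly (limma adjusted p = 0.0469).

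The other V1 subunits moved less. Atp6v1g1, a subunit of the outer stalks, gave 0.21 and 0.41 in treated flox cells, -0.09 and 0.13 in untreated flox cells, -0.18 and 0.02 in treated control cells and -0.16 and -0.01 in untreated control cells. Its flox arrays with tamoxifen lay above the other 6, but the effect of 0.29 ± 0.09 was not called (limma adjusted p = 0.113). Atp6v1b2, the B subunit that binds nucleotide without splitting it, gave 0.25 and 0.39 in treated flox cells, -0.01 and -0.02 in untreated flox cells, 0.04 and 0.14 in treated control cells and -0.16 and 0.27 in untreated control cells. Its groups overlapped. Atp6v1e1, the partner of subunit G in the stalks, was high at day 3 in every group, with 0.69 and 0.77 in treated flox cells, 0.60 and 0.54 in untreated flox cells, 0.44 and 0.65 in treated control cells and 0.30 and 0.75 in untreated control cells. Atp6v1f, of the rotor shaft, varied little between arrays, with 0.31 and 0.29 in treated flox cells, 0.17 and 0.22 in untreated flox cells, 0.23 and 0.17 in treated control cells and 0.19 and 0.20 in untreated control cells; treated flox cells were still the highest. Atp6v1h, which holds the ATPase idle when V1 is free, was spread most between experiments in control cells, with 0.90 and 0.98 in treated flox cells, 0.82 and 0.75 in untreated flox cells, 0.37 and 0.89 in treated control cells and 0.19 and 1.02 in untreated control cells. The tamoxifen effects of these last 4 were 0.34 ± 0.13, 0.16 ± 0.14, 0.10 ± 0.10 and 0.16 ± 0.22, and limma called none of them.

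In the V0 sector, 1 of 5 genes was called. Atp6v0c, the proteolipid of the rotating proton ring (probe at chr17:24301214-24301273), had log2 ratios of -0.33 and -0.04 in untreated control cells, -0.11 and 0.09 in treated control cells, -0.10 and -0.03 in untreated flox cells and 0.70 and 0.52 in treated flox cells. Flox cells with tamoxifen lay above all 6 other arrays, with an effect of 0.67 ± 0.14, 1.60-fold (limma adjusted p = 0.0331). Atp6v0b, another ring subunit, gave 0.09 and 0.42 in treated flox cells, -0.26 and 0.17 in untreated flox cells, -0.06 and 0.19 in treated control cells and -0.30 and 0.30 in untreated control cells. Atp6v0d1, which couples the shaft to the ring, gave 0.19 and 0.22 in treated flox cells, 0.10 and -0.02 in untreated flox cells, 0.15 and -0.02 in treated control cells and -0.01 and -0.10 in untreated control cells. For Atp6v0d1 the flox arrays with tamoxifen were the highest, by a small margin; for Atp6v0b control cells reached into their range. Atp6v0e, a small membrane subunit, had 0.17 and 0.29 in treated flox cells, 3.6e-05 and 0.02 in untreated flox cells, -0.30 and -0.02 in treated control cells and -0.22 and 0.08 in untreated control cells, and its flox arrays with tamoxifen also stood above the rest. Atp6v0a1, a form of the subunit that guides protons through the membrane, differed by experiment as much as by group, with -0.22 and 0.18 in treated flox cells, -0.57 and -0.33 in untreated flox cells, 0.02 and -0.06 in treated control cells and -0.18 and -0.70 in untreated control cells. These 4 had effects of 0.30 ± 0.12, 0.16 ± 0.10, 0.21 ± 0.11 and 0.43 ± 0.22, none called by limma.

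Of the accessory proteins, Atp6ap1 was called and Atp6ap2 was not. Atp6ap1 (probe at chrX:71549319-71549378), a partner of V0 needed for pump assembly, had log2 ratios of -0.13 and 0.35 in untreated control cells, 0.04 and 0.23 in treated control cells, -0.09 and 0.19 in untreated flox cells and 0.56 and 0.71 in treated flox cells. The flox arrays with tamoxifen were above all others, and the effect was 0.59 ± 0.12 (limma adjusted p = 0.0331). Its second probe gave 0.53 ± 0.14. Atp6ap2, also known as the prorenin receptor, had 0.17 and 0.15 in treated flox cells, -0.27 and 0.05 in untreated flox cells, -0.33 and -0.06 in treated control cells and -0.33 and -0.10 in untreated control cells. Treated flox cells were the highest, but the experiments differed, with tamoxifen effects of 0.43 and 0.10, and the fitted 0.27 ± 0.12 was not called. In all, both flox arrays with tamoxifen lay above the 6 others for 10 of the 15 pump genes and 9 of the 27 others, against 13.8% of all genes.

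Membrane proteins held the largest share of calls, 6 of 9, and all 9 had fitted values above 0, from 0.38 to 1.05. Cd63, a tetraspanin of late endosomes and lysosomes (probe at chr10:128349813-128349872), had log2 ratios of -0.13 and -0.02 in untreated control cells, 0.10 and -0.12 in treated control cells, -0.16 and -0.35 in untreated flox cells and 0.92 and 0.66 in treated flox cells. The 6 other arrays lay within 0.35 of 0, and the 2 of treated flox cells stood clear of them, at an effect of 1.05 ± 0.12 (limma adjusted p = 0.00754). Cd68, the heavily glycosylated lysosomal protein used to mark macrophages (probe at chr11:69478979-69479038), had 0.56 and 1.03 in untreated control cells, 0.83 and 1.16 in treated control cells, 0.78 and 0.60 in untreated flox cells and 1.87 and 1.49 in treated flox cells. It rose from day 0 on all 8 arrays and most with tamoxifen in flox cells, by 0.99 ± 0.22 over untreated flox cells (limma adjusted p = 0.041).

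Clcn7 encodes the exchanger that moves chloride into lysosomes against protons (probe at chr17:25298348-25298407). Its log2 ratios were -0.06 and -0.08 in untreated control cells, -0.05 and -0.27 in treated control cells, -0.65 and -0.55 in untreated flox cells and 0.15 and 0.17 in treated flox cells. Untreated flox cells were the low group here, and those with tamoxifen lay above all 6 others by a smaller margin, with an effect of 0.76 ± 0.11 (limma adjusted p = 0.0131). Ostm1, its partner subunit, had an effect of 0.39 ± 0.13 and was not called. Scarb2, the receptor that carries the enzyme glucocerebrosidase to lysosomes (probe spanning chr5:92877611-92878944), had -0.02 and 0.04 in untreated control cells, -0.05 and -0.05 in treated control cells, -0.04 and -0.03 in untreated flox cells and 0.46 and 0.46 in treated flox cells. Its replicates lay close together, and the effect was 0.49 ± 0.09 (limma adjusted p = 0.0274).

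Npc1, which takes cholesterol out of the lysosome, had log2 ratios of 0.18 and 0.43 in untreated control cells, 0.40 and 0.44 in treated control cells, 0.31 and 0.02 in untreated flox cells and 0.99 and 0.69 in treated flox cells. The flox arrays with tamoxifen were the highest, and the effect of 0.68 ± 0.16 passed narrowly (limma adjusted p = 0.0489). Lamp1, the most abundant glycoprotein of the lysosomal membrane (probe at chr8:13175277-13175336), had 0.04 and -0.57 in untreated control cells, 0.16 and -0.57 in treated control cells, -0.33 and -0.71 in untreated flox cells and 0.24 and -0.18 in treated flox cells. In control cells it differed between experiments by more than the tamoxifen effect, and the groups overlapped across experiments. Within an experiment, flox cells with tamoxifen were the highest of the 4, and the effect was 0.55 ± 0.12 (limma adjusted p = 0.0423). Lamp2, its close relative, gave 0.38 ± 0.19 from 1 probe and 0.23 ± 0.12 from the other. Ctns, which exports cystine, gave 0.56 ± 0.20, and limma called neither Lamp2 nor Ctns.

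Enzymes that cut sugars from glycans were called in 2 of 8 cases, though all 8 were above 0 in both experiments. Naglu, which trims heparan sulfate (probe at chr11:100938631-100938690), had log2 ratios of 0.25 and -0.25 in untreated control cells, 0.32 and -0.05 in treated control cells, -0.23 and -0.25 in untreated flox cells and 0.91 and 0.86 in treated flox cells. The flox arrays with tamoxifen lay above the other 6, at an effect of 1.13 ± 0.15 (limma adjusted p = 0.00962). Gusb, beta-glucuronidase (probe at chr5:130465133-130465192), was below its day 0 level on every array, with -1.28 and -0.91 in untreated control cells, -1.25 and -1.02 in treated control cells, -0.91 and -0.95 in untreated flox cells and -0.29 and -0.18 in treated flox cells. Treated flox cells were nearest to day 0 and stood above the other 6, with an effect of 0.69 ± 0.12 (limma adjusted p = 0.0236). Hexa, which cuts gangliosides, missed the threshold at 0.49 ± 0.12 (limma adjusted p = 0.0584). The remaining 5, Neu1, Glb1, Gaa, Gla and Man2b1, had effects from 0.09 for the alpha-mannosidase Man2b1 to 0.38 for the sialidase Neu1.

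Among the peptidases, Tpp1 was called and Lgmn was not. Tpp1, which removes tripeptides from protein ends (probe at chr7:112893532-112893591), had log2 ratios of 0.51 and -0.02 in untreated control cells, 0.13 and -0.14 in treated control cells, -0.28 and -0.50 in untreated flox cells and 0.44 and 0.24 in treated flox cells. Untreated flox cells were the lowest in each experiment, and flox cells with tamoxifen overlapped with control cells, at an effect of 0.74 ± 0.12 (limma adjusted p = 0.0166). Lgmn, the asparagine endopeptidase, gave 0.28 ± 0.11. Npc2, the soluble partner that hands cholesterol to Npc1 (probe at chr12:86097947-86098006), had 0.78 and 0.53 in untreated control cells, 0.98 and 0.49 in treated control cells, 0.65 and 0.20 in untreated flox cells and 1.42 and 0.78 in treated flox cells. In each experiment flox cells with tamoxifen were highest, although experiments overlapped, and the effect was 0.68 ± 0.12 (limma adjusted p = 0.0234).

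Limma called 0 of the 4 lipid hydrolases (2 at an unadjusted p under 0.05), and the other 3 soluble proteins were not either. Smpd1, acid sphingomyelinase, came closest at 0.56 ± 0.13 (limma adjusted p = 0.0528). Lipa, which splits cholesteryl esters, gave 0.55 ± 0.26 with a wide gap between experiments, at 0.29 and 0.80. Asah1, acid ceramidase, gave 0.26 ± 0.10. Grn, progranulin, gave 0.37 ± 0.10 (limma adjusted p = 0.0762), and Psap, the precursor of the saposins, gave 0.13 ± 0.36.

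**Figure D2:**
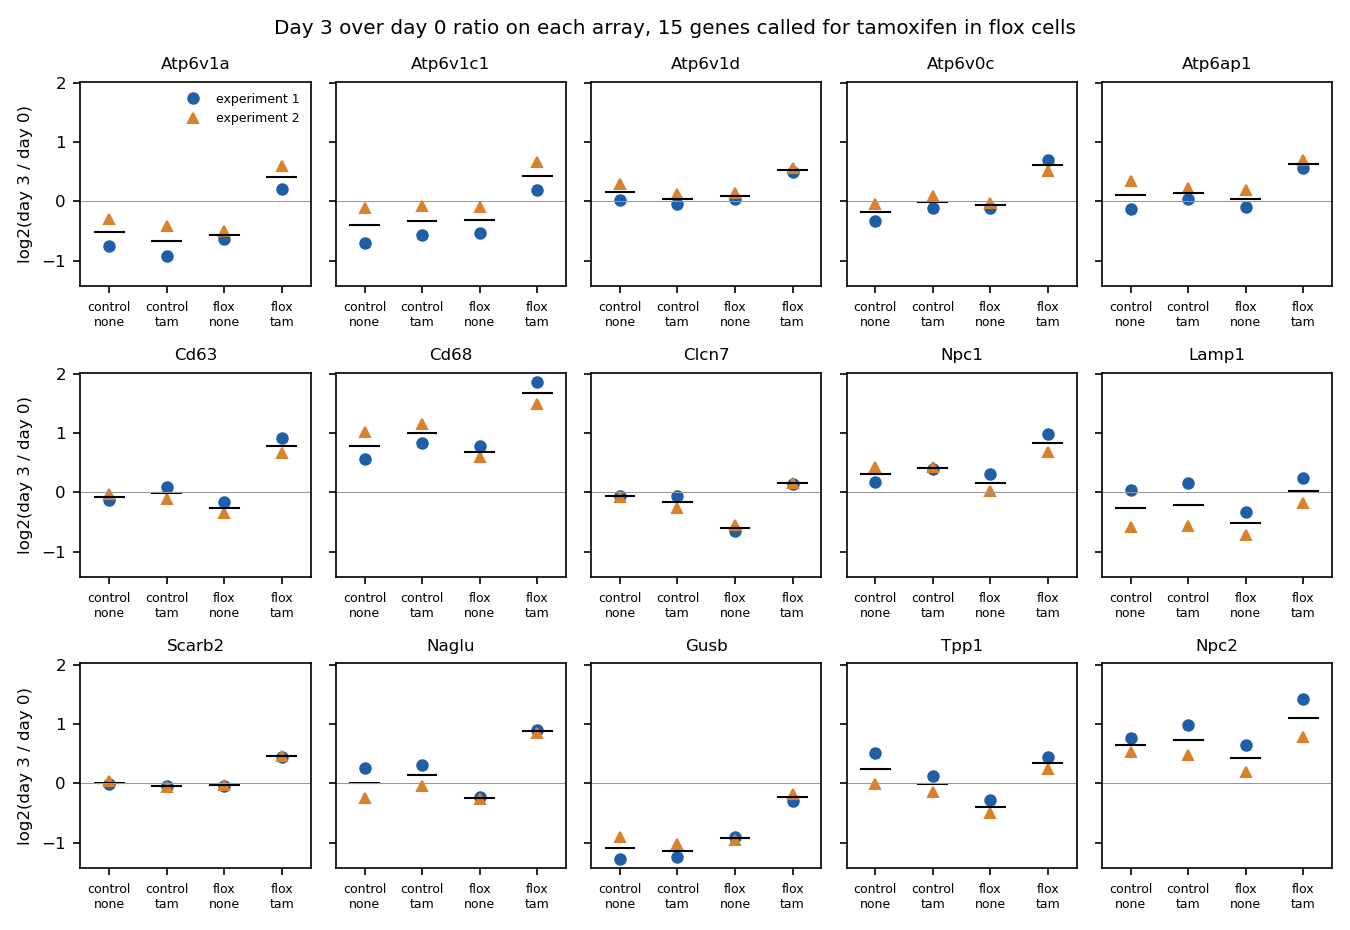
The log2 ratio of day 3 over day 0 (y axis) on each of the 8 arrays for the 15 genes called for tamoxifen in flox cells, by group (x axis; none, untreated; tam, tamoxifen). Circles are experiment 1, triangles experiment 2 and bars the mean of the 2. Both flox arrays with tamoxifen lie above the other 6 for 12 of the 15 genes, against 13.8% of all genes. The 15 were chosen by calls on these same arrays, so this count is no separate evidence.

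The same treatment of control cells asks what tamoxifen does without the flox alleles. There limma called 0 of the 42 and 0% of all genes, with 0 members and 994 genes at an unadjusted p under 0.05. The V-ATPase genes had a median change of 0.02 and the others -0.02, with 23 of the 42 above 0. Atp6v0a1 was the highest, at 0.42 ± 0.22, and Lipa the lowest, at -0.36 ± 0.26.

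The difference of these effects, flox minus control, was above 0 for 40 of the 42, with medians of 0.29 over the V-ATPase genes and 0.54 over the others. Only 1 member was called, against 0.544% of all genes called higher and 0.594% lower. That gene was Atp6v1a, at 1.12 ± 0.17 (95% interval 0.70 to 1.54; limma adjusted p = 0.0475). It was not called with any 1 of the 8 arrays left out, and limma's adjusted p ran from 0.0145 to 0.329 over its 18 alternatives. Of all 17999 genes 2768 had an unadjusted p under 0.05, and 20 of the 42 members did. Among these were Cd63 at 0.98 ± 0.18 (adjusted p = 0.064 with limma), Tpp1 at 0.99 ± 0.17 (adjusted p = 0.0565 with limma) and Clcn7 at 0.86 ± 0.16 (adjusted p = 0.0689 with limma). So a call in flox cells and none in control cells was not shown to be a difference between genotypes for the other 14 genes.

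Flox cells were also set against control cells directly, at day 3 over day 0. With tamoxifen on both sides, 10 of the 42 were higher and 0 lower, against 5.42% and 5.84% of all genes. This comparison shares its flox arrays with tamoxifen with the tamoxifen effect above, so the 2 sets of calls are not independent. The pump held 6 of the 10: Atp6v1a (1.08 ± 0.12), Atp6v1c1 (0.75 ± 0.10), Atp6v0c (0.62 ± 0.14), Atp6ap1 (0.50 ± 0.12), Atp6v1d (0.49 ± 0.10) and Atp6v1g1 (0.39 ± 0.09). The other 4 were Gusb (0.90 ± 0.12), Cd63 (0.80 ± 0.12), Naglu (0.75 ± 0.15) and Scarb2 (0.51 ± 0.09). Limma's adjusted p ran from 0.00778 for Atp6v1a to 0.047 for Atp6v1g1. The median was 0.36 over the V-ATPase genes and 0.28 over the others. At an unadjusted p under 0.05, 21 of the 42 passed, against 5283 of all 17999 genes. Leaving out either treated control array or either treated flox array left 0 called, and leaving out either untreated flox array left 6. Of the 9 neutrophil and precursor markers 3 were lower in flox cells in this comparison, as were 4 of 5 megakaryocyte markers, 3 of 5 stem and progenitor markers and 3 of 3 B cell markers, and 1 of 5 osteoclast and 1 of 5 stromal markers was higher. Of the 10 macrophage markers, 1 was higher and 3 were lower.

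Without tamoxifen, most of the hydrolase and membrane protein genes had fitted values below control cells, and the pump genes had fitted values near them. Limma called 1 of the 42, Tpp1, which was lower in flox cells at -0.64 ± 0.12 (adjusted p = 0.0489), against 1.43% of all genes called lower and 1.44% higher. At an unadjusted p under 0.05, 7 of the 27 hydrolases and membrane proteins passed and 0 of the 15 V-ATPase genes, against 4160 of all 17999 genes. The V-ATPase genes had a median of 0.04 and ran from -0.07 to 0.18. These fitted values average experiments that often differed in sign. Of the 15, 5 lay above 0 in both experiments and 0 below it in both. Their median was 0.12 in experiment 1 and -0.06 in experiment 2. The others had a median of -0.23, from Tpp1 up to Gusb at 0.17 ± 0.12. Their fitted values were below 0 for 26 of 27, against 9012 of all 17999 genes. In both experiments 17 of the 27 lay below 0, against 5478 of all genes. After Tpp1 the lowest were Clcn7 at -0.53 ± 0.11, Glb1, beta-galactosidase, at -0.48 ± 0.11 and Lgmn at -0.42 ± 0.11. The Tpp1 call was lost with any 1 array left out. Here 2 of 9 neutrophil and precursor markers, 2 of 5 stem and progenitor markers and 1 of 5 megakaryocyte markers were also lower in flox cells, and limma called 0 of 10 macrophage, 5 osteoclast and 5 stromal markers (3, 0 and 0 at an unadjusted p under 0.05).

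The step from the comparison without tamoxifen to the one with it equals the difference of the tamoxifen effects, flox minus control. For the pump genes, fitted values started near control, though most differed in sign between experiments. With tamoxifen, 14 of 15 ended above control, all 14 in both experiments. By fitted value, 26 of 27 hydrolases and membrane proteins started below control, 17 of them in both experiments. Of the 27, 21 ended above it, 18 of them in both experiments. Clcn7 went from -0.53 without tamoxifen to 0.32 with it, Tpp1 from -0.64 to 0.35 and Hexa from -0.33 to 0.03. Atp6v1a went from -0.04 to 1.08 and Atp6v1c1 from 0.09 to 0.75. Whether the classes differ was not tested, since the genes are not replicates.

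Levels in single channels, put on 1 scale, were looked at because a lower ratio can come from day 3 or from day 0. For the hydrolases and membrane proteins, the median day 0 level, flox minus control, was -0.01 in experiment 1 and -0.03 in experiment 2. Their median day 3 level without tamoxifen was -0.27 and -0.17, and with tamoxifen 0.15 and 0.29. For the V-ATPase genes the day 0 medians were -0.13 and 0.04. Their day 3 medians were -0.04 and 9.6e-05 without tamoxifen, and 0.27 and 0.34 with it. Over all genes the medians were -0.03 and -0.02 at day 0, and -0.005 and -0.02 at day 3 with tamoxifen. In both classes the median day 3 level was thus higher in flox than in control cells with tamoxifen, in each experiment. For the V-ATPase genes in experiment 1, the lower day 0 level of flox cells raises the ratio as well.

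**Figure D3:**
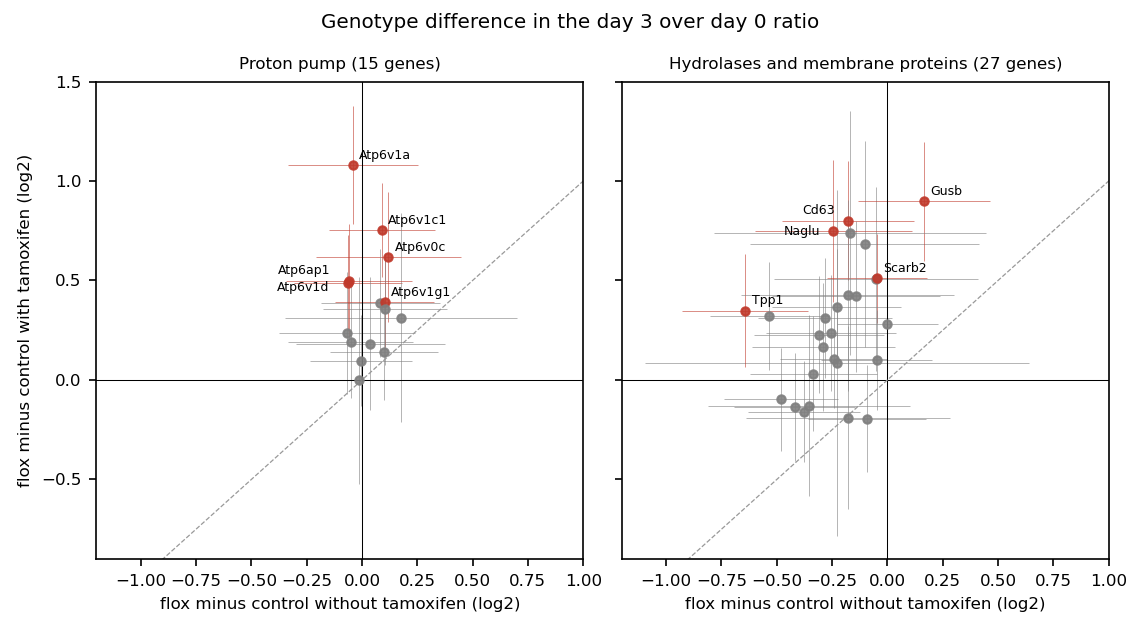
Fitted difference between flox and control cells in the log2 ratio of day 3 over day 0, without tamoxifen (x axis) and with it (y axis), for the 15 pump genes (left) and the 27 others (right); lines are 95% intervals, the dashed line marks equal values and red marks genes called in either comparison. The pump genes sit around 0 on the x axis, with a median of 0.04, and the others mostly left of it, with a median of -0.23.

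The day 3 over day 0 ratios of lysosomal genes went both ways. The cell mix changed as well. In untreated control cells the summed neutrophil and precursor markers were 18.8 to 19.0 at day 0 and 15.9 at day 3. The part of this shift in the ratios was not tested. From day 0 to day 3, untreated control cells had 11 of the 42 higher and 9 lower, against 23.3% and 34.1% of all genes. Ppt1, a thioesterase that removes palmitate, rose most, at 1.22 ± 0.14, followed by Asah1 at 1.01 ± 0.07 and Gm2a, the activator protein of Hexa, at 0.82 ± 0.08. Gusb fell most, at -1.09 ± 0.09, then Gla at -0.98 ± 0.07 and Lipa at -0.94 ± 0.18. The pump was split, with Atp6v1h (0.61 ± 0.15), Atp6v1e1 (0.53 ± 0.10) and Atp6v1f (0.20 ± 0.07) higher and Atp6v1a (-0.52 ± 0.09), Atp6v0a1 (-0.44 ± 0.15) and Atp6v1c1 (-0.40 ± 0.07) lower. The SEs and calls for day 3 against day 0 leave out the shift that the groups of an experiment share. In untreated control cells Atp6v1c1 was at -0.70 in experiment 1 and -0.10 in experiment 2. Control cells with tamoxifen gave 10 higher and 9 lower, against 23.9% and 33.8% of all genes.

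In untreated flox cells 8 were higher and 19 lower, against 23.9% and 33.4% of all genes, and 16 of the 19 were hydrolases or membrane proteins. All 8 glycan enzymes were below 0, with a median of -0.42. With tamoxifen, flox cells had 23 higher and 4 lower, against 25.5% and 33.4% of all genes. Of the 15 pump genes, 13 rose from day 0 and 0 fell, including all 8 of V1, from 0.30 for Atp6v1f to 0.94 for Atp6v1h. Of the pump, Atp6v0a1 (-0.02 ± 0.15) and Atp6ap2 (0.16 ± 0.08) were not called. The 4 that fell were Gla, Psap, Lipa and Lamp2, at -0.92, -0.87, -0.57 and -0.38. These counts were lower without single arrays of the group itself. Untreated control cells had 11 called without experiment 2, treated control cells 11 without experiment 1 and 9 without experiment 2. Untreated flox cells had 8 called without experiment 1 and 17 without experiment 2, and treated flox cells 14 without experiment 1.

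**Figure D4:**
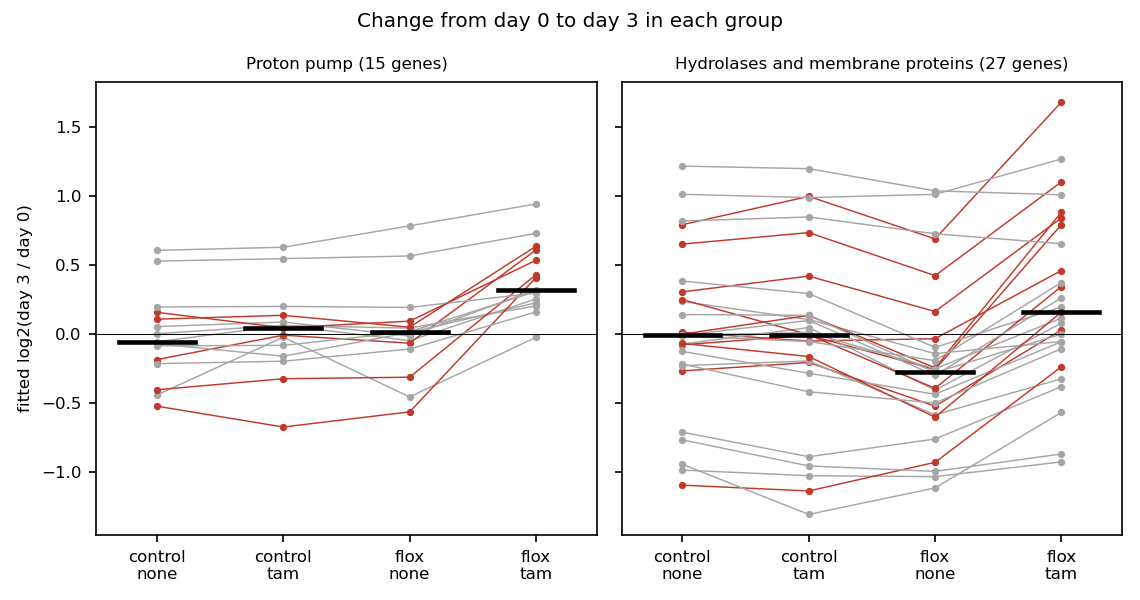
Fitted log2 ratio of day 3 over day 0 (y axis) in the 4 groups (x axis) for each of the 15 pump genes (left) and 27 others (right); each line is a gene, red where tamoxifen in flox cells was called, and black bars are medians. The pump median rises from 0.01 to 0.32 between untreated flox cells and those with tamoxifen, and that of the others from -0.28 to 0.16.

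Across the 42 genes, the tamoxifen effects in flox cells of experiments 1 and 2 correlated at r = 0.85 (rho = 0.84, n = 42 genes). The arrays of the 2 experiments carry opposite dyes, and genes on 1 array share its loess curve. Among the 15 pump genes, the effect ran against the change from day 0 in untreated control cells, at r = -0.66 (rho = -0.60, n = 15 genes). Atp6v1a and Atp6v1c1 fell from day 0 to day 3 and had the largest tamoxifen effects. Atp6v1h, which rose most from day 0, had 1 of the smaller ones. No array entered both measures. Over the 27 others the same correlation was r = -0.09. A second probe existed for 5 members and had the same sign for tamoxifen in flox cells as the first: Atp6v1a and Atp6ap1 above, Lamp2, Asah1 at 0.16 and Gaa at 0.20. The mean intensity of the probe and the effect correlated at r = -0.10 over the 42.

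Genes of the same organelle outside the 42 gave a mixed picture for tamoxifen in flox cells. Of 10 further V-ATPase subunits 5 were measured, with 2 called higher and 0 lower, against 4.87% and 4.16% of all genes. Atp6v0d2, a form of subunit d found in osteoclasts and some macrophages, had log2 ratios of 1.75 and 1.04 in untreated control cells, 2.02 and 1.47 in treated control cells, 1.20 and 0.50 in untreated flox cells and 3.32 and 3.56 in treated flox cells. It was far above the others in flox cells with tamoxifen, at 2.59 ± 0.24 or 6.00-fold (limma adjusted p = 0.00411), more than any of the 42. The difference of its effects, flox minus control, was 2.24 ± 0.33 (limma adjusted p = 0.0431). Atp6v1g2 was called at 0.52 ± 0.11 (limma adjusted p = 0.0331).

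Of 28 other hydrolases, 4 were called higher and 2 lower, against 4.87% and 4.16% of all genes. Their median was 0.28, against -0.01 over all genes. Arsb, an arylsulfatase, had log2 ratios of -0.68 and -0.70 in untreated control cells, -0.57 and -0.38 in treated control cells, -0.99 and -0.91 in untreated flox cells and 0.14 and 0.21 in treated flox cells, and its effect was 1.13 ± 0.10 (limma adjusted p = 0.00411). Galc and Scpep1 also rose, and Rnaset2a fell; these are named after their values were seen. Acp5, tartrate-resistant acid phosphatase, went the other way, with log2 ratios of 1.65 and 1.11 in untreated control cells, 1.77 and 1.15 in treated control cells, 1.61 and 1.26 in untreated flox cells and 0.09 and -0.09 in treated flox cells. It was above its day 0 level in 3 groups and near its day 0 level in flox cells with tamoxifen, a tamoxifen effect of -1.44 ± 0.13 (limma adjusted p = 0.00411).

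The counts of the next 3 lists stand beside 4.87% of all genes called higher and 4.16% lower. Of 20 other membrane proteins, 2 rose and 0 fell, Laptm4b at 0.66 ± 0.11 and the ion channel Tmem175 at 0.70 ± 0.13. Of 18 genes that deliver cargo to lysosomes, 4 rose and 0 fell, among them Gga2 (1.11 ± 0.11), an adaptor that sorts enzymes at the Golgi. Igf2r (0.86 ± 0.14), the mannose 6-phosphate receptor that carries them, and Ap3d1 (0.48 ± 0.10) rose as well. Of 11 measured genes for pump assembly and regulation limma called 0, with 2 at an unadjusted p under 0.05 and Lamtor3 of smallest p at 0.37 ± 0.09 (adjusted p = 0.0618). The medians of these last 3 lists were 0.09, 0.28 and 0.17, against -0.01 over all genes.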

How the data were processed

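The authors scanned the arrays with Agilent Feature Extraction 10.7.3.1, per the submitters' processing notes. The deposited files hold intensity values per spot and channel, and a log10 ratio that Agilent's program detrended and normalized with LOWESS, per the file headers. The table of values that the authors deposited repeats these log10 ratios within 5e-10, turned to day 3 over day 0.

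Mean spot intensities were corrected with normexp (offset 50) and normalized by loess within each array (limma 3.58.1, R 4.3.3; files read with the data.table package, 1.17.8), turned to log2 of day 3 over day 0 from the authors' labelled dyes. Outlier spots were dropped. Probes well above background in both arrays of a group in either channel were kept (22407 of 39429), and each gene took its brightest probe. Symbols were updated through RefSeq for 26412 probes, and probe positions are on the mm9 design of the array. Single-channel levels used Aquantile scaling.

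Means of the 4 groups were fitted with limma beside an effect of experiment (dye direction and slide coincide with it), with 3 residual and 3.46 prior degrees of freedom. The 9 comparisons are two-sided, adjusted over all 17999 genes. Experiments pair arrays by the series' design. Deviations of arrays with the same number correlated at 0.31 to 0.39 between genotypes. Within a genotype, where arrays share day 0 RNA, they correlated at 0.73 in control and 0.63 in flox cells. The main fit has no term for the shared day 0 RNA, so its p-values between genotypes do not account for it. Fitted as a random block, that RNA gave a correlation of 0.32. The number of arrays, 2 a group, limits the precision. The steps were tested on simulated data. The values on every array are given for each pump gene and for each other member called for tamoxifen in flox cells, in the difference or in flox against control with tamoxifen. Each further list has its 3 called genes of smallest p named, or the 1 of smallest p where none was called; 1 gene that this rule takes is not reported here. The members and lists were chosen with earlier results of these data known.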

Additional observations from a re-analysis of the deposited data

Results flagged for a closer look

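Groups of 2 arrays are too small for a check of single outlying arrays. The results here differ between genotypes by a limma test of the difference. Atp6v1a responded to tamoxifen more in flox than in control cells, by 1.12 on the log2 scale. With tamoxifen, flox cells lay above control cells for Atp6v1a by 1.08, Gusb by 0.90, Cd63 by 0.80, Atp6v1c1 by 0.75, Naglu by 0.75, Atp6v0c by 0.62, Scarb2 by 0.51, Atp6ap1 by 0.50, Atp6v1d by 0.49 and Atp6v1g1 by 0.39. Without tamoxifen, Tpp1 lay lower in flox cells, at -0.64.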

How the results depend on the processing

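Every member called for tamoxifen in flox cells, for the difference of the effects or between genotypes kept its direction under the alternatives run. Of the members not called, some changed sign: 2 of the 42 lay below 0 for tamoxifen in flox cells, against 1 with Agilent's processed ratios, the deposited value table or the day 3 channel alone, and 3 without experiment 1 of the untreated or of the treated flox cells. With tamoxifen in flox cells, 15 members were called. Counts were 3 with no replicate block, which drops the pairing by experiment, 8 with median centring, 8 with Agilent's processed ratios, 8 with the deposited value table and 26 with the compared arrays alone, and 1 to 16 with an array left out. Every one of these calls was upward. The median of the hydrolases and membrane proteins went from 0.49 to 0.40 with median centring and 0.38 with the day 3 channel alone, and 0.36 to 0.53 with an array left out. For the difference of the effects, 1 call became 0 without the replicate block, with median centring, processed ratios, the value table, scaling between arrays or the mean of all probes, 2 without a filter, 4 with the day 3 channel alone, 7 with day 0 RNA as a random block and 0 to 1 with an array left out. Flox against control with tamoxifen gave 10 calls, 2 without the replicate block, 3 with median centring, 5 with processed ratios, 5 with the value table, 6 with the compared arrays alone and 0 to 11 with an array left out. Without tamoxifen, 1 call became 0 without the replicate block, with median centring, processed ratios, the value table, the random block, the compared arrays alone or any array left out, and 3 with the day 3 channel alone.

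For day 3 against day 0, the replicate block moved a count by over 1.5 times only in untreated flox cells, from 27 to 17 without it. Asking for a log2 change of at least 0.5 gave 13 calls in untreated control cells, 15 in untreated flox cells and 16 in flox cells with tamoxifen. With an array left out, counts were 11 to 17 of 20 in untreated control cells, 9 to 19 of 19 in control cells with tamoxifen, 8 to 27 in untreated flox cells and 14 to 30 in flox cells with tamoxifen. Leaving out either treated control array, either treated flox array or either untreated flox array moved the counts for the tamoxifen effect in flox cells and for flox against control with tamoxifen by over 1.5 times. Where this leaves a group with 1 array, that array is assumed to vary like the others. The compared arrays alone could not be fitted for single groups, and the day 3 channel alone does not apply there. The cause of these moves was not tested, beyond the smaller number of arrays. With median centring the median of all genes for tamoxifen in control cells was 0.08. All 42 probes lay well above background, and each group has 2 arrays.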
